A study of Homo sapiens with 18 samples.

Results

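MYC binding was mapped by chromatin immunoprecipitation sequencing (ChIP-seq) in parental MDA-MB-231 cells, an established human line of triple-negative breast cancer. All peaks of the MYC list on chromosomes 1 to 22 were taken, 49142 of the 49833 peaks listed, and they form 1 of 6 deposited lists that together hold 778196 peaks. The 2 MYC libraries were unmodified, untreated cells as far as the labels say, and they gave 1 joint list, so no peak has a value per library. The other lists used here come from the same parental cells for the histone demethylase KDM2B, H3K4me3, H2AK119ub and H3K27me3, and from cells carrying an empty vector for H3K27ac. Because every value is that of 1 joint list, no difference below has a replicate error or a test, and the 95% Wilson intervals given beside shares cover counting error only.

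MYC is a basic helix-loop-helix leucine zipper transcription factor that binds DNA as a pair with MAX, by preference at the E-box CACGTG. Its known targets include genes for ribosome production, translation, nucleotide synthesis and metabolism, and it is found at most promoters that are already active. MNT, the MXD proteins and MGA compete with MYC for MAX and bind the same E-boxes. Overactive MYC is common in triple-negative breast cancer.

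The motif is easiest to see in the promoters with the strongest MYC peaks. The stretches below are shown because they are the 6 with the highest MYC fold (the enrichment of a peak, as the authors' peak caller wrote it) among promoters that hold CACGTG upstream of the start, taking 1 gene per peak. Each gives up to 50 bases on either side of the most distant E-box, ends at the start site at the latest, is written 5′ to 3′ on the strand of the gene, and carries CACGTG in capitals. The letters are from the RefSeq promoter table on GRCh38.p14.
AIMP2, chr7:6009440-6009545, plus strand: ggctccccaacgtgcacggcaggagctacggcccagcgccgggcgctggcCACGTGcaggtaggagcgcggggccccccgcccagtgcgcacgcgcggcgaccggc
PPAT, chr4:56435742-56435847, minus strand: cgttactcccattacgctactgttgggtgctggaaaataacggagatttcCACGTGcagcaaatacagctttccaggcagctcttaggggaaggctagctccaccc
ARHGDIA, chr17:81871011-81871116, minus strand: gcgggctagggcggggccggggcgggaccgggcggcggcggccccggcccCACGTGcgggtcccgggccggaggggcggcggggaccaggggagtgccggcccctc
DDX54, chr12:113185484-113185589, minus strand: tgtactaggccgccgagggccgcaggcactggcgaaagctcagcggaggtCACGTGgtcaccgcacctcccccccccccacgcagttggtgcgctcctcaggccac
HK2, chr2:74834926-74835031, plus strand: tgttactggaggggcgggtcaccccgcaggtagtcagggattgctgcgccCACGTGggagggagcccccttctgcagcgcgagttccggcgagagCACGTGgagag
ODC1, chr2:10448013-10448091, minus strand: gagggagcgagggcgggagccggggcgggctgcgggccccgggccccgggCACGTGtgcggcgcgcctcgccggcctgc

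The MYC fold was 83.1 at AIMP2, a scaffold of the aminoacyl-tRNA synthetase complex, and 76.1 at PPAT, which catalyses the first committed step of purine synthesis. It was 67.3 at ARHGDIA, 60.5 at the RNA helicase gene DDX54, 60.3 at the hexokinase gene HK2 and 56.9 at ODC1, the rate-limiting enzyme of polyamine synthesis. HK2 and ODC1 each held 2 copies of CACGTG in their promoters of 300 bases. At AIMP2 the summit of the peak lay 18 bp from the E-box, and at HK2 it lay 87 bp away. At ODC1 it lay 799 bp away and at PPAT 645 bp, so a strong peak over an E-box promoter did not always have its summit there.

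The 2 genes of highest MYC fold held no CACGTG in these windows. For contrast, the 150 bases upstream of the start are shown for both, whose promoters held neither CACGTG nor the variants CACGCG and CATGTG. The GC box GGGCGG, the site of Sp1-like factors, is in capitals.
EIF5A, chr17:7307478-7307627, plus strand: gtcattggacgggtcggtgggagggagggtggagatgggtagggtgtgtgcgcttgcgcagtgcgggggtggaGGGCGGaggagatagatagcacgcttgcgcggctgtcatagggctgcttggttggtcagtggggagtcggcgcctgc
EEF1B2, chr2:206159459-206159608, plus strand: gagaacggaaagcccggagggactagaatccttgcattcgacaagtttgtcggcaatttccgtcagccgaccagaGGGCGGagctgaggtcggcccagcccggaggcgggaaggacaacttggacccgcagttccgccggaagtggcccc
The fold was 117.6 at EIF5A and 86.8 at EEF1B2, both translation elongation genes, and no match in these windows says nothing about sites elsewhere under the peaks.

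The cell type was checked by the acetylation list. H3K27ac lay at the starts of 11 of 11 mesenchymal and basal markers, with a median fold of 61.5, and of 7 of 12 luminal markers. Over all protein-coding genes 12249 of 19126 had H3K27ac at a start, so the luminal count is near the share of all genes. It was absent from the luminal markers CDH1, ESR1, ESRP1, PGR and TFF1 and from all 8 blood markers. MYC had a peak at 8 of 11 mesenchymal and basal, 8 of 12 luminal and 4 of 8 blood markers, not far from the 65.0% of all protein-coding genes, so these counts say little about the markers.

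Relative to the bases available, MYC peaks were most concentrated at promoters, and those peaks were the strongest and widest. A promoter was the 1 kb on either side of a protein-coding gene start, a gene body the rest of a gene record, and a peak counted with at least 1 bp of overlap. Promoters held 13624 peaks (27.7%, interval 27.3% to 28.1%), although their windows make up 1.73% of the bases spanned, a ratio of 16.1. Gene bodies held 18108 peaks (36.8%) in 41.0% of the bases, and the space between genes held 17410 peaks (35.4%) in 57.3% of the bases. The median fold was 9.66 at promoters, against 2.97 in gene bodies and 2.99 between genes. The median width was 1480 bp at promoters, against 393 bp in gene bodies and 394 bp between genes. Promoter peaks therefore made up 49.9% of all bases under MYC peaks. Of the other lists, KDM2B had 55.5% of its peaks at promoters, H3K4me3 18.9%, H3K27ac 15.3%, H2AK119ub 5.83% and H3K27me3 2.76%.

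**Figure D1:**
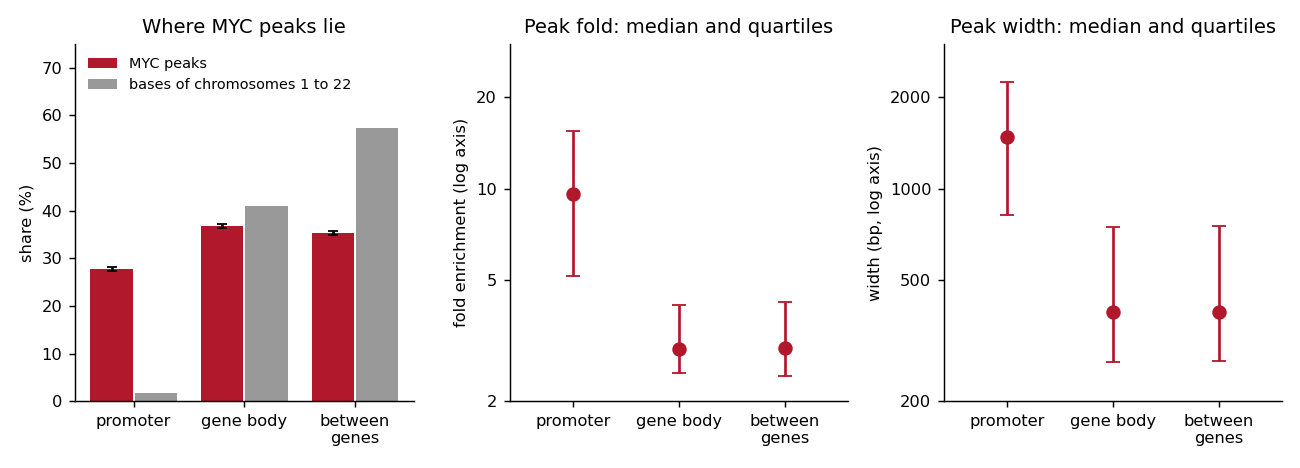
Share of MYC peaks (red, with 95% Wilson intervals) and of bases (grey) by location on a linear axis in percent, and the median fold and width of MYC peaks by location on log axes, with bars from the lower to the upper quartile. Promoters hold 27.7% of the peaks in 1.73% of the bases, and their median fold of 9.66 and width of 1480 bp are the highest of the 3 locations.

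Most peaks away from promoters were weak. All MYC peaks were cut into 10 classes of nearly equal size by fold. In the lowest class, with folds of 1.12 to 2.22, 6.59% of peaks were at promoters. In the highest class, with folds of 14.0 to 124.6, 83.7% were. Median width was 279 bp in the lowest class and 2274 bp in the highest. The median distance to the nearest protein-coding start was 19720 bp in the lowest class and 247 bp in the highest. Among the 15000 peaks of highest fold, 65.7% were at promoters. Fold and width are both read from the same signal of the same libraries.

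**Figure D2:**
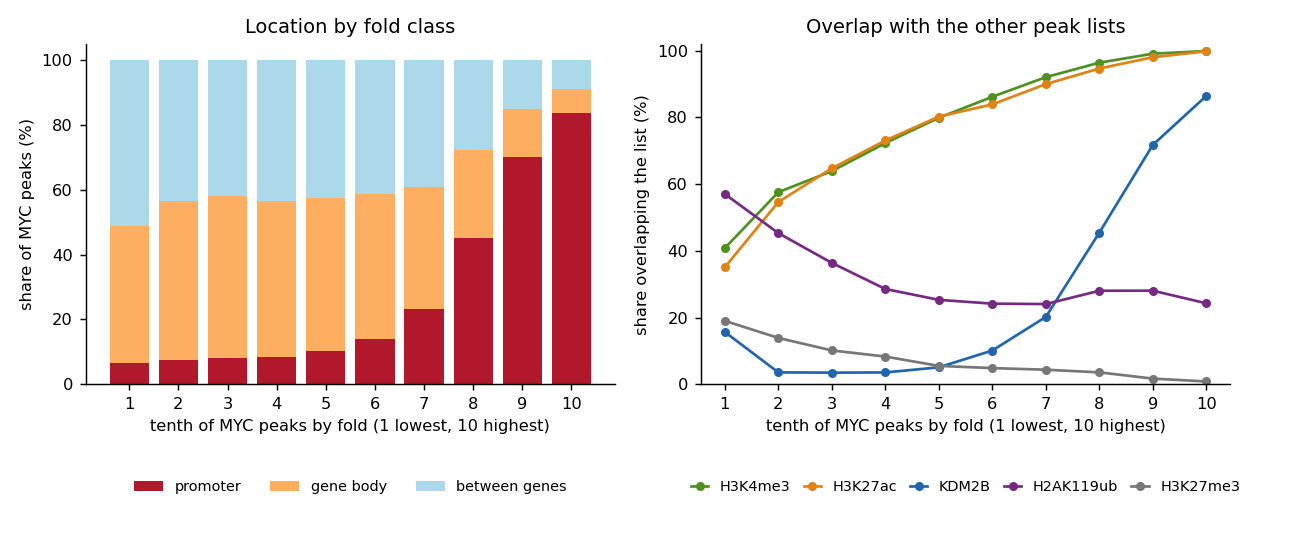
MYC peaks in 10 classes of rising fold on the x axis, with the share in each location (left, percent) and the share overlapping each other peak list by at least 1 bp (right, percent). The promoter share is 6.59% in class 1 and 83.7% in class 10, and the H3K27me3 share is 19.02% in class 1 and 0.855% in class 10.

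Most MYC peaks lay in chromatin with active marks, at promoters and away from them. H3K4me3, the mark of active and poised promoters, overlapped 78.8% of all MYC peaks (interval 78.4% to 79.2%), and H3K27ac, the mark of active promoters and enhancers, overlapped 77.4%. Both were present at 69.2% and neither at 13.0%. At promoters H3K4me3 overlapped 98.0% of MYC peaks and H3K27ac 91.4%. In gene bodies the shares were 75.2% and 75.7%, and between genes 67.5% and 68.2%. MYC peaks with H3K4me3 had a median fold of 4.14, against 2.50 for those without it. No peak of the 5 other lists touched 2199 MYC peaks (4.47%), whose median fold was 2.52. H3K27ac was measured in the empty-vector cells, so the stock cannot be told apart from the mark in that overlap.

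KDM2B, which binds unmethylated CpG-rich DNA, and the Polycomb marks divided the MYC peaks differently. KDM2B overlapped 66.1% of MYC peaks at promoters, 8.04% in gene bodies and 14.8% between genes. Its share was 86.4% in the highest class of MYC fold. It was 3.58% in class 2 but 15.7% in class 1. H2AK119ub, the mark set by Polycomb repressive complex 1, overlapped 57.0% of the lowest class and 24.3% of the highest. H3K27me3, set by Polycomb repressive complex 2, overlapped 7.23% of all MYC peaks, and its share was 19.02% in the lowest class and 0.855% in the highest. All 5 other lists overlapped at 221 MYC peaks (0.450%), with a median fold of 7.16. The lists differ in extent, with 46.5 Mb under MYC peaks, 167.4 Mb under H2AK119ub and 353.9 Mb under H3K27me3.

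MYC summits gathered just downstream of the start. Of 10266 MYC summits within 1 kb of a start of known strand, 65.5% lay downstream of it, with a median position of 118 bp, and 25.7% lay in the 100 bp that begin 100 bp after the start. The median summit position was 160 bp for KDM2B, 200 bp for H3K4me3 and 147 bp for H3K27ac, and 44 bp for H3K27me3. In the 100 bp just before the start MYC had 6.54% of its summits, against 3.18% for KDM2B, 2.00% for H3K4me3 and 1.95% for H3K27ac, while H3K27me3 had 6.57% and H2AK119ub 4.97%. Among the 10% of these MYC summits with the highest fold the median position was 129 bp. The chromatin was cut with an enzyme, per the labels' protocols, which cuts between nucleosomes, and whether this moved the summits was not tested.

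**Figure D3:**
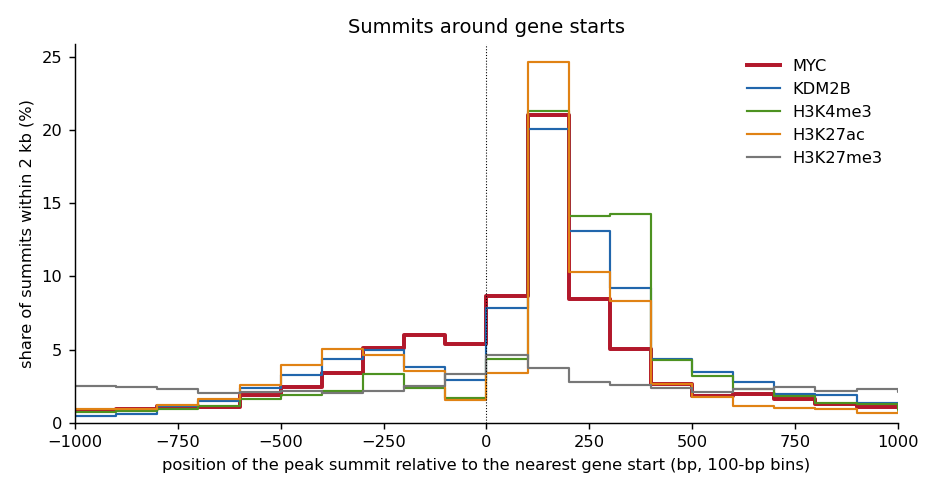
Share of summits (percent of those within 2 kb of a start) in bins of 100 bp by their position from the nearest gene start, for MYC and 4 other lists, with positive values downstream. The MYC, KDM2B, H3K4me3 and H3K27ac curves all peak in the bin from 100 to 200 bp, and MYC keeps a larger share just before the start than KDM2B, H3K4me3 and H3K27ac do.

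The E-box CACGTG was more frequent in promoters with stronger MYC peaks. It was searched on both strands, where it reads the same, in 21156 promoters of 300 bases, from 250 before to 50 after the start. Of all of them 1745 held it (8.25%). Among promoters with a MYC peak the share was 10.3% (1305 of 12660, interval 9.79% to 10.8%), against 5.18% without one (440 of 8496, interval 4.73% to 5.67%). By class of MYC fold it was 5.92% in the lowest 10% of bound promoters and 18.6% in the highest (235 of 1266, interval 16.5% to 20.8%). Promoters with H3K4me3 but no MYC peak held it in 4.49% of cases. The variant CACGCG, searched with its reverse complement CGCGTG, was in 14.3% of all promoters, in 10.7% of the lowest class of bound promoters and in 26.8% of the highest. The variant CATGTG, with CACATG, was in 8.91% of all promoters, in 8.77% of the lowest class and in 6.71% of the highest.

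Base composition differed more between bound and unbound promoters than between the lowest and the highest class of fold. The median GC content was 66.3% in bound promoters and 53.0% in unbound ones, and the ratio of observed to expected CpG was 0.848 in bound and 0.312 in unbound promoters. In bound promoters GC content was 63.3% in the lowest class and 66.7% in the highest, and the CpG ratio was 0.717 in the lowest and 0.881 in the highest. The part of base composition in the motif shares was not tested beyond the split by CpG given here. GACGTC, a palindrome made of the same bases as CACGTG, was in 5.96% of all promoters, in 7.98% of bound and 2.95% of unbound ones, and was at 8.29% in both the lowest and the highest class of fold. Within the third of all promoters richest in CpG, CACGTG was in 11.6% of the bound and 9.31% of the unbound promoters. It was in 9.45% of the bound and 7.43% of the unbound ones of middling CpG, and in 7.50% and 3.91% within the third poorest in CpG. GACGTC differed between bound and unbound promoters too, with 10.2% of the bound and 6.58% of the unbound among the richest in CpG. It was in 6.21% and 5.09% of those of middling CpG, and in 4.10% and 1.80% of the poorest. A difference within these CpG groups was therefore not limited to the E-box. The poorest group spans CpG ratios of 0 to 0.518, so its bound and unbound promoters need not be alike in CpG. Whether factors that bind GACGTC play a part in its shares was not tested. CAGCTG, an E-box preferred by other helix-loop-helix factors, was in 18.1% of all promoters, in 21.0% of the lowest class and 13.8% of the highest. The loose pattern CANNTG, which takes in CACGTG among others, was in 64.9% of all promoters, in 58.5% of bound ones and in 74.5% of unbound ones.

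**Figure D4:**
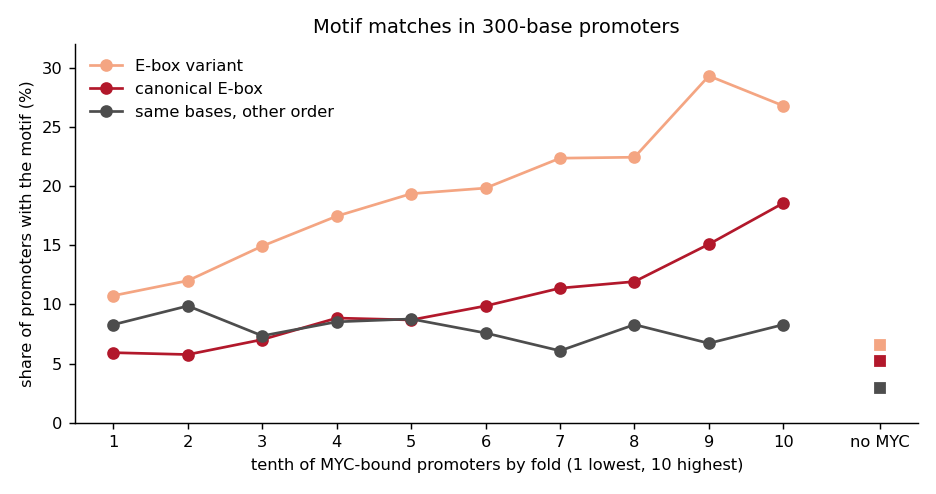
Share of promoters (percent) with the canonical E-box, the variant CACGCG, and GACGTC, a palindrome of the same bases, over 10 classes of bound promoters by MYC fold, with unbound promoters as squares at the right. The canonical E-box is at 5.92% in class 1 and 18.6% in class 10, while the other palindrome is at 8.29% in both.

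MYC summits lay close to the E-box where both fell in the promoter window. In 2610 of the 12660 bound promoters the summit of the strongest MYC peak was inside the 300 bases. Of these 455 held CACGTG, out of 1305 bound promoters with it. The bin with most MYC summits, from 100 to 200 bp, lies outside the window, so the distances below do not cover most bound E-box promoters. The median distance from the summit to the nearest CACGTG was 31.5 bp, and 58.5% of these summits were within 50 bp (interval 53.9% to 62.9%). For CACGCG the median was 40.5 bp and 56.9% were within 50 bp. For GACGTC the median was 89.5 bp with 30.4% within 50 bp, and for CAGCTG it was 79.5 bp with 34.8%. The GC box GGGCGG, often present in several copies, had a median of 46.0 bp. A MYC peak was at 58.5% of promoters with no CACGTG, 74.0% of those with 1 copy and 81.7% of those with at least 2, and the median folds of the bound ones were 11.8, 15.5 and 14.9.

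MYC lay at the start of 12430 of 19126 protein-coding genes, 65.0% (interval 64.3% to 65.7%). The median fold at these genes was 11.6, with quartiles of 7.46 and 17.7, and the 10% of bound genes with the highest fold had at least 25.8. That 10% is 6.50% of all protein-coding genes. H3K4me3 marked 98.8% of genes with MYC and 15.4% of genes without it. H3K27ac marked 94.4% of genes with MYC and 7.63% without, and KDM2B 75.7% with and 0.956% without. The Polycomb marks ran the other way. H3K27me3 was at 8.01% of genes with MYC and 53.4% without, and H2AK119ub at 31.1% with and 54.9% without. Of 13314 genes with H3K4me3, 92.3% had MYC. The best peak of 2901 bound genes was shared with another gene.

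Genes whose start faces another protein-coding start on the opposite strand within 1 kb were nearly all bound. MYC was at 1796 of 1890 such genes (95.03%), with a median fold of 13.7, against 63.0% of the other genes with a start of known strand, with a median of 11.5. Among those with H3K4me3 the shares were 98.9% and 92.0%. The windows of such a pair overlap, so 1 peak of MYC or of H3K4me3 can count for both genes. This counting can raise the shares of facing genes, and by how much was not tested.

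The genes with the highest MYC fold had varied functions, and several pairs shared a peak. EIF5A (chr17:7307513-7309965, 2453 bp) came first with 117.6. The peak between EEF1B2 and NDUFS1, a core subunit of respiratory complex I, had 86.8. The peak shared by MGME1, a mitochondrial nuclease, and SNX5, a sorting nexin, had 85.1 and no KDM2B overlap. AIMP2 shared its peak of 83.1 with the mismatch repair gene PMS2, and PPAT shared its peak of 76.1 with PAICS, a later enzyme of purine synthesis. ING5, a reader of H3K4me3, had 79.6, the Rab regulator GDI2 75.6 and the splicing factor RNPS1 75.4. A peak of 75.4 that spans 12607 bp covered RPL23A, NEK8, TLCD1 and RAB34, so its fold cannot be given to 1 of these. PCBP1, an RNA-binding protein, and ASPRV1 shared a peak of 74.5, and the nucleolar gene NOLC1 had 73.0. LOC124904958, which shares the peak of the noncoding SNHG17, had 80.7.

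Gene lists by function and by tissue were then read against the 65.0% of all genes. Of 43 lists, 32 had a larger bound share than all genes. Of all genes with H3K4me3 at a start, however, 92.3% had MYC. Most growth, translation and metabolic lists had that mark at nearly every gene, and all 47 splicing factors and 35 proteasome genes had it. A bound share near 92.3% is therefore that of marked genes in general. MYC was at 27 of 30 marked ATF4-responsive genes and 19 of 21 marked glycolysis genes. Among the cytosolic ribosomal proteins 74 of 75 had MYC, with a median fold of 36.1, and 59 of the 75 were in the 10% of bound genes with the highest fold, where 6.50% of all genes are. RPL23A had 75.4, RPS24 72.0, RPL14 69.6 and RPL6 68.8.

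The machinery that builds ribosomes followed. All 62 nucleolar ribosome biogenesis genes had MYC, with a median fold of 27.5 and 33 in the top 10%. They were led by NOLC1 with 73.0, by NCL, the abundant nucleolar protein nucleolin, with 72.5, by WDR43 with 68.8 and by NPM1 with 59.7. All 34 genes of RNA polymerases I and III and their factors had MYC, with a median of 21.0. POLR3D had 53.0, POLR1B 50.4, POLR3G, a subunit of undifferentiated and tumour cells, 48.3, and GTF3A, which switches on 5S rRNA genes, 44.2. Of 25 noncoding host genes of small nucleolar RNAs (snoRNAs), 24 had MYC, with a median of 28.3, where 25.0% of all long noncoding RNA genes had it. Of the 25, 14 reached the fold of 25.8 that bounds the top 10% of bound protein-coding genes. Some had the same fold as a protein-coding neighbour, such as SNHG9 and NDUFB10. SNHG15 had 105.4, SNHG17 80.7, SNHG9 54.3 and EPB41L4A-AS1 46.1, and SNHG14, active mainly in neurons, had none and no H3K4me3.

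Translation factors and their suppliers all had H3K4me3, and nearly all had MYC. All 45 initiation and elongation factors had MYC, with a median fold of 27.2 and 23 in the top 10%, among them EIF5A, EEF1B2, EIF3D with 52.9 and EEF1E1 with 50.5. All 20 cytosolic aminoacyl-tRNA synthetases had it, with a median of 23.6, led by YARS1 with 41.2, TARS1 with 41.0, FARSB with 37.97 and KARS1 with 35.1. The mitochondrial ribosomal proteins were bound as often, in 76 of 77, but with a median fold of 13.7 and 9 in the top 10%. MRPL3 had 61.1, MRPL42 34.9, MRPL12 34.3 and MRPL24 32.4, and MRPL28 had no peak.

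**Figure D5:**
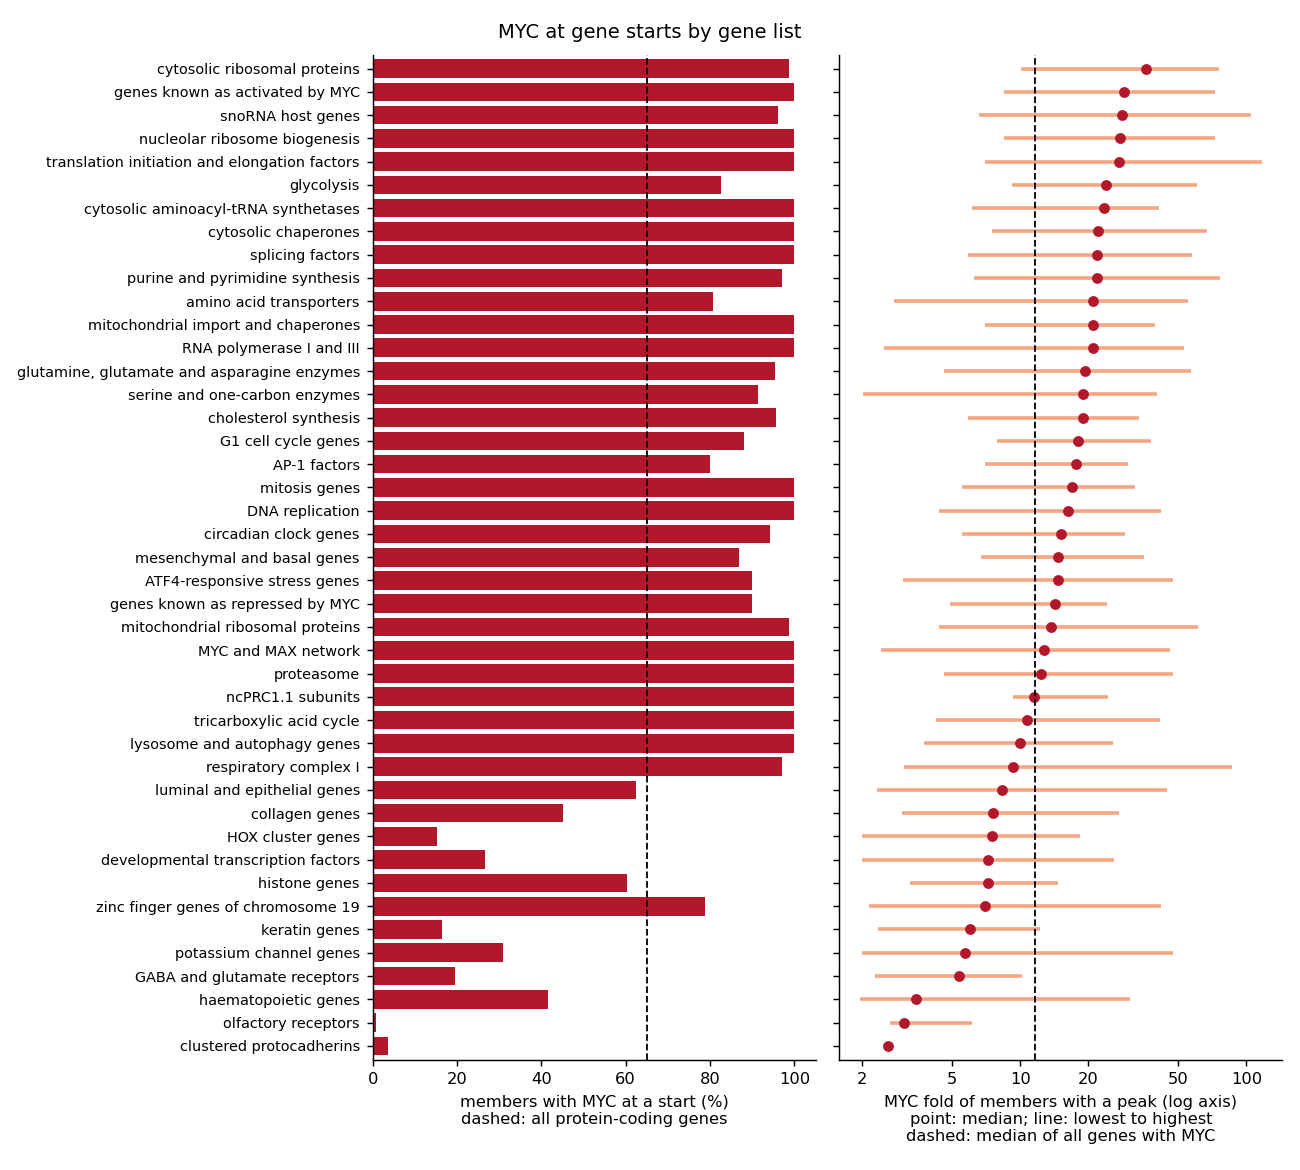
For 43 gene lists, the share of members with MYC at a start (left, percent) and the fold of those members (right, log axis, point for the median and line from the lowest to the highest), with dashed lines for all protein-coding genes (65.0%) and for all genes with MYC (median 11.6). Ribosomal proteins have the highest median, 36.1, and clustered protocadherins and olfactory receptors the lowest shares and folds.

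Protein folding and RNA processing genes had high folds too. All 25 cytosolic chaperones had MYC, with a median of 21.99. The chaperonin subunits CCT2, CCT5 and CCT7 had 66.9, 53.0 and 43.8, and HSP90AB1 had 61.2. All 30 mitochondrial import and chaperone genes had it, with a median of 21.1, led by TOMM40 with 39.4, by HSPE1 and HSPD1, which share a peak of 37.7, and by TOMM5 with 34.0. All 47 splicing factors had it, with a median of 21.9 and 21 in the top 10%, led by U2AF2 with 57.3, SRSF6 with 52.7, HNRNPA2B1 with 49.4 and SNRPB with 42.2. The proteasome was bound in all 35 of its genes at a median of 12.3, close to the 11.6 of all bound genes, and only PSME3 with 47.4 and PSMC4 with 32.4 were in the top 10%. PSMD7 had 21.6 and PSMD14 21.4.

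Nucleotide synthesis and cell cycle genes differed in strength. Of 34 genes of purine and pyrimidine synthesis 33 had MYC, with a median fold of 21.8 and 15 in the top 10%. NME2, a nucleoside diphosphate kinase, had 67.1, RRM2, a subunit of ribonucleotide reductase, 52.5, and CAD, which starts pyrimidine synthesis, 33.0. PRPS1L1, a testis gene, had no peak. All 41 DNA replication genes had MYC, with a median of 16.2 and 3 in the top 10%, led by POLD2 with 41.8, MCM3 with 35.7, MCM4 with 30.9 and MCM7 with 23.2. All 30 mitosis genes had it, with a median of 16.9, led by BIRC5 with 32.1, CENPA with 31.3, AURKB with 28.0 and MAD2L1 with 23.5. Of 25 G1 genes 22 had it, with a median of 18.1. E2F3 had 37.9, CDK4, the cyclin D kinase, 32.5, E2F5 31.4 and CCND3 31.0. CDKN2A, CDKN2B and their neighbour MTAP, a locus this line is known to have lost, had no peak of any of the 6 lists at their starts, nor had RB1.

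Metabolic lists ranged from strong to ordinary. Of 23 glycolysis genes 19 had MYC, with a median of 24.0, led by HK2 with 60.3, ENO1 with 47.8, LDHB with 43.4 and PGAM1 with 32.4, and LDHA had 25.45. ALDOC, PFKFB2, SLC16A1 and SLC2A3 had no peak. All 18 genes of the tricarboxylic acid cycle had MYC at a median of 10.7, led by MDH2 with 41.6, CS with 26.3, IDH3A with 21.9 and SUCLG2 with 19.99. Of 35 complex I genes 34 had it at a median of 9.30. The 2 highest of these, NDUFS1 with 86.8 and NDUFB10 with 54.3, carry the same folds as their neighbours EEF1B2 and SNHG9, and NDUFC1 had 28.0 and NDUFA11 27.1. Of 23 cholesterol genes 22 had it at a median of 18.95, led by DHCR7 with 33.7, LSS with 25.3, SREBF2 with 25.1 and SREBF1 with 23.5. FDFT1 had no peak. All 28 lysosome and autophagy genes, whose promoters carry E-box-like sites of TFEB, had MYC at a median of 9.92, and none was in the top 10%. SQSTM1 had 25.7, ATP6V1A 23.5 and PSAP 16.6.

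Amino acid genes, the subject of the study's title, had median folds between those of ribosomal proteins and of all bound genes. Of 23 serine and one-carbon genes 21 had MYC, with a median fold of 18.96. FPGS had 40.4, MTR 38.9 and MTHFD1L 33.0. PSAT1, PSPH, SHMT2 and MTHFD2, enzymes of serine synthesis and of its use, had 36.3, 23.6, 22.1 and 13.4, and PHGDH, the first enzyme of serine synthesis, had 5.21. GLDC and MTRR had no peak. Of 22 genes listed under glutamine, glutamate and asparagine, 21 had it. The list also takes in enzymes of related pathways, and the polyamine enzyme gene ODC1 came first with 56.9. PYCR3 had 35.3, GPT 32.6 and GLUD1 31.8, and asparagine synthetase ASNS had 18.6. ARG1 had none. Of 31 amino acid transporters 25 had it, with a median of 21.1. SLC7A1 had 55.3, SLC38A1 38.1, SLC7A6 36.3, SLC6A9 33.5, SLC7A5 24.3, SLC1A5 24.0 and SLC7A11 10.6. SLC3A2 had 31.1, the same fold as the snoRNA host SNHG1, so that value cannot be given to 1 of them. Of 30 genes known to respond to ATF4, 27 had MYC at a median of 14.6. VEGFA had 47.4, ATF4 itself 36.3, ATF5 33.6 and CHAC1 31.9, and ATF3, FGF21 and GDF15 had none but had H3K4me3.

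MYC lay at the starts of its own partners and rivals. All 16 genes of the MYC and MAX network had a peak, with a median fold of 12.7. The rivals MXD1, MNT, MXD3 and MGA had 45.9, 42.0, 35.0 and 34.1, and MAX had 30.1. Among the MLX branch of the network, MLXIP had 31.3, MLX 25.2 and MLXIPL 3.79. MYC itself had 6.55, MYCL 8.86 and MYCN 2.42. The MNT peak spanned 11641 bp and was among the 10 widest. The noncoding neighbour of MYC, PVT1, had 39.2 at an end of its record, since no start on chromosome 8 was of known strand.

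Genes known as activated and as repressed by MYC were bound in nearly like shares but not with like folds. All 24 activated genes had a peak, with a median fold of 28.7 and 12 in the top 10%, led by NCL, NPM1, ODC1 and ENO1. Of 10 genes known as repressed 9 had a peak, with a median of 14.3, above the 11.6 of all bound genes, and none in the top 10%. The kinase inhibitor CDKN1B had 24.2, GADD45A 18.0, CEBPA 16.3 and NDRG1 14.6. The one without a peak was CDKN2B, in the locus this line is known to have lost.

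Haematopoietic genes had MYC less often, and with lower folds, than all genes, while mesenchymal, AP-1 and clock genes did not. Among members with H3K4me3, however, MYC was at 10 of 11 haematopoietic, 20 of 22 mesenchymal and 12 of 13 AP-1 genes. It was at all 16 clock and 15 of 19 luminal genes with the mark, where 92.3% of all genes with it had MYC. The bound share of all luminal genes, 62.5% (interval 42.7% to 78.8%), was near the 65.0% of all genes, and their median fold was lower. Of 23 mesenchymal and basal genes 20 had MYC at a median of 14.7, led by MET with 35.4, ANXA2 with 29.5, AXL with 20.3 and LAMC1 with 19.97. Of 24 luminal genes 15 had it at a median of 8.31, led by MUC1 with 44.6, ERBB3 with 29.3, ESRP2 with 25.4 and XBP1 with 19.998. The noncoding gene THBS3-AS1 had the same fold as MUC1, so that value cannot be given to 1 of them. Of 24 haematopoietic genes 10 had MYC at a median of 3.47, and CD8A with 30.6 and LYN with 14.4 stood above HBA1 with 3.76 and CD3E with 3.64. Of 15 AP-1 factors 12 had it, led by FOSL2 with 30.0, BATF3 with 27.1, MAFG with 22.3 and JUNB with 22.04. Of 17 circadian clock genes, which are themselves driven through E-boxes, 16 had it at a median of 15.1, led by NR1D1 with 29.2, CLOCK with 28.3, NR1D2 with 28.0 and NPAS2 with 27.5.

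Developmental and tissue-restricted families had MYC less often than all genes. Among members with H3K4me3, MYC was at 19 of 23 developmental factor, 9 of 11 keratin and 18 of 24 collagen genes. It was at 28 of 43 potassium channel, 8 of 13 GABA and glutamate receptor and 6 of 16 HOX genes. It was at 3 of 7 olfactory receptor genes and 1 of 19 protocadherins, where 92.3% of all genes with that mark had MYC. Of 79 developmental transcription factor genes 21 had a MYC peak and 47 had H3K27me3 at the start, a mark at 4574 of all 19126 protein-coding genes. PITX1 with 26.1, GATA6 with 23.02 and DLX2 with 12.04 were among the highest in MYC fold. Of 39 HOX genes 6 had it, led by HOXB9 with 18.3, HOXD4 with 10.2, HOXD1 with 8.27 and HOXA13 with 6.72. Of 55 keratin genes 9 had it, led by KRT18 with 12.2, KRT7 with 8.77, KRT80 with 7.57 and KRT19 with 6.37. Of 42 collagen genes 19 had it, COL5A2 with 27.4 being the highest, and of 94 potassium channel genes 29, KCNQ5 with 47.2 being the highest. Of 41 receptors for GABA and glutamate 8 had it, GRIN1 with 10.1 first. Of 389 olfactory receptor genes 3 had it, OR14A2 with 6.09, OR2V2 with 3.07 and OR52N2 with 2.64. Of 53 clustered protocadherins 2 had it, PCDHB12 with 2.61 and PCDHA5 with 2.57. The 9 measured subunits of the variant Polycomb complex ncPRC1.1 all had MYC at a median of 11.5, led by RNF2 with 24.5, PCGF1 with 17.5, KDM2B itself with 17.0 and CBX8 with 14.0.

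Zinc finger and histone genes were bound with low folds. Of 240 zinc finger genes of chromosome 19 189 had MYC (78.8%, against 65.0% of all genes), with a median fold of 7.01. With the 15000 peaks of highest fold the direction turned, to 120 of the 240 against 54.9% of all genes, and of the 205 members with H3K4me3 189 had MYC, where 92.3% of all genes with that mark had it. ZNF565 and ZNF146, which share a fold of 42.0, ZNF296 with 34.3 and ZNF507 with 31.9 were the highest. Of 73 histone genes 44 had MYC at a median of 7.21 with none in the top 10%, with H4C8 at 14.7, H1-10 at 13.7 and H2BC18 at 11.5 among the highest.

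Noncoding genes were bound less often than protein-coding ones, transfer RNA (tRNA) genes most. MYC lay within 1 kb of 229 of 439 tRNA genes (52.2%), and of 170 of the 376 with no protein-coding start window in reach (45.2%, interval 40.3% to 50.3%). H3K4me3 was at 98.2% of those 170. The share was uneven: 28 of 33 tRNA genes on chromosome 17 had MYC, 58 of 155 on chromosome 6 and 1 of 22 on chromosome 7. The highest away from protein-coding starts were TRI-TAT2-2 with a fold of 27.5, TRP-AGG2-1 and TRP-CGG1-1, which share one of 22.8, and TRK-TTT3-4 with 22.3. Many tRNA genes are near-identical copies, so reads may be split or lost among them. Long noncoding RNA (lncRNA) genes had MYC at 4443 of 17795 (25.0%), or 13.2% away from protein-coding starts. MicroRNA genes had it at 390 of 1793 (21.8%), or 13.0% away from them. SnoRNA genes had it at 210 of 1150 (18.3%), and the 134 away from protein-coding starts had a median fold of 17.8.

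The strongest peaks outside protein-coding genes lay at noncoding genes or at no annotated gene. Of the 10 highest between genes, 6 were at lncRNA genes, SNHG15 with 105.4, MIRLET7A1HG with 63.5, MIR17HG with 57.1, SNHG26 with 52.7, LINC01116 with 42.9 and DANCR with 42.9, and 1 at the transcribed pseudogene FAM86C1P with 45.8. MIR17HG hosts the miR-17-92 cluster, a known MYC target, and MIRLET7A1HG hosts a let-7 cluster, known to be lowered by MYC. The mature sequences of both are shown to tell their families apart, from RefSeq on GRCh38.p14, with the seed (bases 2 to 8) in capitals. They were chosen after the values were seen.
hsa-miR-17-5p: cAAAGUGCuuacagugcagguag
hsa-miR-20a-5p: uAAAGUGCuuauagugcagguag
hsa-miR-18a-5p: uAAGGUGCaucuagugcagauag
hsa-miR-19a-3p: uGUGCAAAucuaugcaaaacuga
hsa-miR-19b-3p: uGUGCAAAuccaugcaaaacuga
hsa-miR-92a-3p: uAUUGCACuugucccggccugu
hsa-let-7a-5p: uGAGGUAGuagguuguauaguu
hsa-let-7f-5p: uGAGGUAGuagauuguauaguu
hsa-let-7d-5p: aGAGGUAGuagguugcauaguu
The first 6 hold 4 seeds, of which miR-17-5p and miR-20a-5p share 1 and miR-19a-3p and miR-19b-3p another, and the 3 let-7 forms share a single seed. The MYC peak of 57.1 at MIR17HG (chr13:91346739-91350804) ran over the sequences of miR-17-5p and miR-18a-5p and ended 557 bp before that of miR-92a-3p. The peak of 63.5 at MIRLET7A1HG (chr9:94165405-94167465) lay at the start of the host, 8497 bp from let-7a-5p.

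The highest fold of the whole list had no gene at it. The peak at chr7:4641103-4643507 had 124.6, spanned 2405 bp, overlapped KDM2B, H3K4me3 and H3K27ac, and lay 40193 bp from FOXK1, the nearest protein-coding start. No record of the annotation lay within 1 kb of it, and the same held for 2 others of the 10 highest between genes, near C2orf42 with 41.7 and near ERCC1 with 41.5. Between genes, 27.7% of all MYC peaks were in a lncRNA record or within 1 kb of its start, and 77.5% were over 10 kb from a protein-coding start.

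Peaks in gene bodies reached lower folds than those at starts. The highest were inside UBE2V2 with 50.8, near COPZ2 with 47.7, and at EPB41L4A-AS1 inside EPB41L4A with 46.1. UBE2V2 is on chromosome 8, where only the ends of gene records were used. A start inside its record would therefore be counted as gene body. Others of the 10 highest were LRRC8D (chr1:89842383-89844851) with 45.7, KLHL31 with 43.3, PCBP3 with 42.5, HS3ST3B1 with 39.9, the overlapping AMZ1 and GNA12 with 39.8 and TIMP2 with 39.5. All 10 overlapped H3K4me3 and H3K27ac. Along genes of known strand, outside the start windows, 13.4% of summits were in the first 10% of the gene, which holds 8.90% of the bases, and 10.7% were in the last 10%, which holds 10.1%.

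The widest MYC peaks were not the strongest. The widest, inside PLEC, the cytoskeletal linker plectin, spanned 18726 bp with a fold of 15.2, and others were FOSL1, an AP-1 factor, with 17826 bp, EPHA2 with 14516 bp and RPL3 with 12648 bp. RPL23A, CIRBP, HMGA1, MNT and ITGA3 were also among the 10 widest. All 10 overlapped H3K4me3, H3K27ac and KDM2B. By number of peaks, 13784 protein-coding gene records held at least 1 MYC peak and 365 at least 10, and GNG7 with 48 in 191.5 kb and BCAR3 with 41 in 286.4 kb held the most.

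MYC peaks followed gene density across chromosomes. They numbered 58.8 per Mb on chromosome 19 and 6.44 per Mb on chromosome 13, and 17.1 per Mb over all 22. Over the 22 chromosomes the density of peaks and of protein-coding genes had a Pearson r of 0.974 and a Spearman rho of 0.841, given as a description since both share the chromosomes' gene content. The promoter share was highest on chromosome 12 with 32.7% and lowest on chromosome 21 with 18.1%. The median gap between neighbouring peaks was 8.30 kb, and 27.01% of gaps were under 1 kb. The copy number of this line was not measured here, and its part in the number of peaks was not tested.

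A few peaks had very low q values with folds near 1. The 10 peaks of lowest fold among those with −log10 q over 50 had folds of 1.34 to 1.54. Some were nearest to FRG2B, FRG2C or DUX4, members of families with near-identical copies, and others lay far from any protein-coding start, such as chr1:143249760-143250054 and chr5:49661427-49661818. All 10 overlapped KDM2B, 9 overlapped H2AK119ub, and none overlapped H3K4me3 or H3K27ac. The part of repeated sequence in these peaks was not tested.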

How the data were processed

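ChIP-seq of human MDA-MB-231 cells was analysed from the deposited peak lists, 1 for each of 6 antibodies with 2 libraries each. Per the submitters' processing notes, which give no order, Trim Galore, Bowtie2 2.4.5, SAMtools 1.6 and MACS2 2.2.7.1 were used on hg38; the control used and how the 2 libraries were joined are not given in the sources used here. The authors' lists give each peak a fold over background, a peak score, −log10 q-values and a summit position. All MYC peaks had q up to 0.0499. They are not counts, so the read depth is unknown, and the labels do not tell whether an antibody had separate cultures. The input and ATF4 libraries were not analysed here.

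Computed here, with Python 3.11.15, NumPy 2.4.6, pandas 2.3.3, SciPy 1.17.1 and Matplotlib 3.10.9: peaks on chromosomes 1 to 22 were kept (691 left out) and placed against RefSeq GRCh38.p14. Starts of known strand came from the promoter table for 15101 of 19126 protein-coding genes (21156 starts), and both ends of the gene record stood in for the other 4025, which include all 715 of chromosome 8. The same rule was used for lncRNA genes. Bases are counted from position 1 to the last gene or peak of each chromosome. A gene's fold is that of the highest peak within 1 kb of a start. The interval code was checked on simulated data, and all simulated intervals were recovered. The members and gene lists were chosen with earlier results of these data known. Named genes are the 20 of highest MYC fold, the 10 highest peaks in gene bodies and between genes, the 10 widest peaks, up to 4 members per list and a fixed set of MYC and amino acid genes; the comparison motifs and the genes without MYC were named after their values were seen. Alternatives were other windows, stricter peaks, summits, 50% overlap and other gene sets. A few genes that the rule names are not reported here.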

Additional observations from a re-analysis of the deposited data

How the results depend on the processing

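The shares depend on which peaks and windows are counted. With a window of 500 bp, 25.2% of MYC peaks were at promoters, 38.6% in gene bodies and 36.2% between genes, and 63.6% of genes had MYC; with 2500 bp these were 35.3%, 31.6%, 33.1% and 67.8%. With the 32117 MYC peaks of q under 1e-05 they were 38.4%, 30.2%, 31.4% and 62.9%, and with the 15000 of highest fold 65.7%, 16.8%, 17.5% and 54.9%. By summit they were 25.5%, 38.1%, 36.4% and 62.0%. With both ends of every record, gene bodies held 37.9% and the space between genes 34.5%. With genes of every biotype the shares were 35.3%, 41.7% and 23.02%. Overlaps with H3K4me3, H3K27ac, KDM2B, H2AK119ub and H3K27me3 were 88.7%, 86.9%, 39.0%, 28.4% and 4.52% for peaks of low q, 98.4%, 97.4%, 67.2%, 26.7% and 2.07% for the 15000, 75.3%, 73.8%, 22.4%, 21.0% and 5.54% by summit, and 75.1%, 73.9%, 9.86%, 21.3% and 5.60% where at least 50% of the MYC peak had to be covered. One count per set of overlapping windows gave 50.4% of sets with MYC, and genes of the promoter table alone, chosen after seeing the data, 67.0%. CACGTG was in 10.9% of promoters bound by the 15000 peaks and in 17.4% of those that hold a summit. The cause of these moves was not tested beyond the smaller or wider sets themselves. The count of lists above all genes was 32 of 43 at 500 bp and 31 with the 15000 peaks, where the shares of 11 lists moved past their intervals.

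No paired analysis was possible because both libraries of an antibody are joined in 1 list, and for the same reason no replicate was left out. Without read counts, absence of a peak means that none was listed, and differences between weak peaks and none are not resolved.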
